A study of Mus musculus with 10 samples.

Results

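Transcripts of 10 genes that encode cell surface proteins were examined in single cells from mouse hind limbs: *Cd200*, *Enpep* and *Eng*, which belong to the antibody panel that defines the mouse skeletal stem cell (mSSC), the tetraspanins *Cd9*, *Cd63*, *Cd81* and *Cd151*, and the surface receptors *Cd14*, *Cd24a* and *Cd44*. They were chosen by name from 29183 genes listed in both count tables, with earlier results of these data known, and all 10 were listed. Cells of 2 reporter lines on a C57BL/6 background were compared. In *Grem1-TdT* mice, a tamoxifen-inducible Cre driven by *Grem1* switches on TdTomato, and chow with tamoxifen was given for 2 weeks from 5 to 6 weeks of age. Articular cartilage (AC) and growth plate (GP) were cut out, and live TdTomato+ cells were sorted. In age-paired *Lepr-TdT* mice the Cre is constitutive, so that cells which once expressed *Lepr* stay labelled along with their progeny. These cells came from whole bones and were sorted as live, CD45-Ter119-CD31- and TdTomato+. All cells carried the TdTomato reporter, and no unlabelled cells were compared. Each well held 1 cell. The *Grem1* lineage filled 8 plates (1, 2, 4, 5, 6, 7, 8 and 9), and the *Lepr* lineage filled 2 (1 and 2). Neither the number of mice behind a plate nor the tissue (AC, GP or both) it holds is known, and p-values therefore measure the spread between plates, which may be technical. The study's methods describe a random allocation of cells to plates and a grouping of cells from a few samples. Plates may therefore share mice.

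*Cd200* encodes a membrane glycoprotein that engages an inhibitory receptor on myeloid cells, and it is a positive marker of the mSSC. *Enpep* (6C3) encodes an aminopeptidase that cleaves angiotensin peptides, and *Eng* (CD105) encodes a co-receptor for TGF-beta and BMP ligands. Both proteins are absent from the mSSC surface and mark more committed skeletal progenitors and stroma. Tetraspanins are small proteins that cross the membrane repeatedly and gather integrins and other partners into membrane domains. CD9, CD63 and CD81 are also abundant on extracellular vesicles, CD63 resides mostly in late endosomes and lysosomes, and CD151 binds laminin-binding integrins. CD14 is a co-receptor for bacterial lipopolysaccharide that is best known from monocytes, CD24 is a heavily glycosylated protein anchored in the outer membrane leaflet, and CD44 is the main receptor for hyaluronan, a polymer that is abundant in cartilage.

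The bases before a transcript start of 4 members are shown because they are among the genes that set the groups of *Grem1*-lineage cells apart below: *Cd200*, *Cd9* and *Cd81*, with more transcripts in one group, and *Cd63*, with more in the other. *Cd14* sets them apart as well, and its sequence is not shown. Each run covers 250 bases that end just before the start given by RefSeq in build GRCm38.p6, written 5′ to 3′ on the strand of the gene. The positions are chr16:45409054-45409303 (minus strand), chr6:125494761-125495010 (minus), chr7:143052500-143052749 (plus) and chr10:128909095-128909344 (plus). The run of *Cd63* lies inside the span of the gene, which the GENCODE annotation begins at position 128900989, so it precedes only one of its starts. Capitals mark matches on either strand to 5 motifs that were searched. The GC box was read as GGGCGG and the TATA box as TATAAA. The core of SOX factor sites was read as ACAAAG, and the variant with the letters ACAATG was counted with it. The CRE core was read as TGACGT, and the site of FOXO factors as GTAAACA.
*Cd200*: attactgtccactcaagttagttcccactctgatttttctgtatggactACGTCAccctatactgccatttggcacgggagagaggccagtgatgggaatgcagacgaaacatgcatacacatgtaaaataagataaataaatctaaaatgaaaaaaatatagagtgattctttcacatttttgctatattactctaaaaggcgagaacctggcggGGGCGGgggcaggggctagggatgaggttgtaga
*Cd9*: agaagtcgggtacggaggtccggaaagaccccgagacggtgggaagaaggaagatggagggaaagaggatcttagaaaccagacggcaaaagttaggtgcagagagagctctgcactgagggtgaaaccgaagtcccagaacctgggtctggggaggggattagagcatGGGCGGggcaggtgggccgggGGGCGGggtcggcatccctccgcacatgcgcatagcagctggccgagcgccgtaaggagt
*Cd81*: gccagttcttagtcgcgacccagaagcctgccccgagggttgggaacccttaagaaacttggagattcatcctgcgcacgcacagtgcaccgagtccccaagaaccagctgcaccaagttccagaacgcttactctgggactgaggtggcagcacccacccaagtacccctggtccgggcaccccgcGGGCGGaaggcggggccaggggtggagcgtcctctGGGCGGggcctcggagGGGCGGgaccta
*Cd63*: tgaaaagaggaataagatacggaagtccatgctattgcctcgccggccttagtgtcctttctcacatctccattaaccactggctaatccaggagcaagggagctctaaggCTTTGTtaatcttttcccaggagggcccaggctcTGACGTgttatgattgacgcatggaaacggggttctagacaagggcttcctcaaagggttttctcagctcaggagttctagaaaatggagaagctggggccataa

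The sequence upstream of *Cd200* held 1 GC box and 1 CRE core, that of *Cd9* held 2 GC boxes and that of *Cd81* held 3. The sequence upstream of *Cd63* held 1 SOX core and 1 CRE core and no GC box. Of 32851 upstream sequences of the same length in RefSeq, 32.7% held a GC box, 25.2% a SOX core, 12.4% a TATA box, 6.47% a CRE core and 3.17% a FOXO site. The GC content was 42.4% upstream of *Cd200* and 48.8% upstream of *Cd63*, against 61.6% for *Cd9* and 65.6% for *Cd81*. The median of all upstream sequences was 52.4%, with quartiles of 45.2% and 61.2%. These matches describe the letters only, and no binding was measured. The RefSeq table held such a sequence for 8 of the members other than *Cd14*, which lies on chromosome 18.

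*Grem1*-lineage cells were split by their UMIs, the molecular tags that count each captured transcript once. A cell with more UMIs of *Clu*, *Cilp* and *1500015O10Rik* together than of *Cnmd* was called a Clu-side cell, and every other cell was called a Cnmd-side cell. *Clu*, *Cilp* and *1500015O10Rik* mark AC, and *Cnmd* encodes chondromodulin, a cartilage factor that keeps vessels out. Of 684 kept cells, 414 were Clu-side and 270 Cnmd-side, and each plate gave both, with 43 to 68 Clu-side and 26 to 40 Cnmd-side cells. In 49 cells (7.16%) the larger side was under 2 times the other, and 4 were ties. The *Lepr* lineage gave 160 kept cells, 74 on plate 1 and 86 on plate 2. Total UMIs over the shared genes were 51229 to 78395 per plate in Clu-side cells, 57206 to 106289 in Cnmd-side cells, and 64310 and 59981 in *Lepr*-lineage cells. The median cell held 1217, 2218.5 and 505 UMIs, respectively. Plates reuse the same 96 well barcodes, of which 70 occur on all 10 plates, and carry separate plate indexes.

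The names of the groups stand for the rule and not for a tissue. Among the other genes of a list of AC markers, 4 of 5 tested were higher in Clu-side cells, led by *Gas1* (log2 fold change 5.27) and *Creb5* (4.23). Of the GP list only *Epyc* was higher in Cnmd-side cells (log2 fold change of Clu-side over Cnmd-side -4.06), while *Col10a1*, the collagen of hypertrophic chondrocytes, was higher in Clu-side cells (2.55). Of 9 general chondrocyte genes, 7 were lower in Clu-side cells, among them *Col2a1* (-1.98). Of the osteoblast list 6 genes were tested, of which 1 was lower in Clu-side cells and none higher. *Lepr*-lineage cells expressed marrow stromal genes, and 5 of 6 tested were higher than in the *Grem1* lineage, among them *Cxcl12* (9.66) and *Adipoq* (9.77). All 9 general chondrocyte genes were lower than in the *Grem1* lineage. Some chondrocyte transcripts were uneven over the 2 *Lepr*-lineage plates. *Prg4*, of the AC list, had 99 UMIs on plate 1 and 1 on plate 2, and *Cytl1* was at 2178 ± 3081 CPM (SD, n = 2 plates). Haematopoietic transcripts were found in all groups although the *Lepr* sort excluded CD45+ cells. Their summed level over 20 listed markers was 0 to 6658 CPM per plate in Clu-side cells, 35.0 to 3794 in Cnmd-side cells, and 16891 and 22850 in *Lepr*-lineage cells, while *Adgre1*, *Cd163* and *Cd3e* were at 0 in every group. Every one of the 160 *Lepr*-lineage cells carried a UMI of these 20 markers, against 82 Clu-side and 84 Cnmd-side cells. The whole list held 35 genes, and the others, among them *S100a8*, *Ngp*, *Lyz2* and *Ptprc*, were not analysed here in the *Grem1* lineage. In *Lepr*-lineage cells *S100a8* was found in 160 and *Ngp* in 159 of 160 cells, so these sums leave out abundant haematopoietic transcripts. Haematopoietic UMIs below are counted over the same 20 markers. The summed level of 6 endothelial markers was at most 35.4 CPM, and *Egfl7*, *Cldn5* and *Flt1* were at 0.

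*Cd200* set the *Grem1*-lineage groups apart most clearly among the mSSC genes. Levels are UMIs summed per plate and group, given per 1000000 UMIs after TMM scaling of library sizes (CPM). *Cd200* was at 832 to 1924 CPM in Clu-side cells (median 1685, n = 8 plates), at 81.9 to 463 CPM in Cnmd-side cells (median 289, n = 8), and at 169 and 216 CPM on the *Lepr*-lineage plates. Every Clu-side sum lay above every Cnmd-side sum, and both *Lepr*-lineage values fell inside the Cnmd-side range. The difference between Clu-side and Cnmd-side cells was 2.51 ± 0.19 (log2, SE), a 5.70-fold higher level on the Clu-side, with an adjusted p of 5.69e-08 in edgeR's quasi-likelihood test with the plate as a block. It was higher on 8 of 8 plates. In such sums, fewer cells that express a gene and fewer transcripts per cell cannot be told apart.

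**Figure D1:**
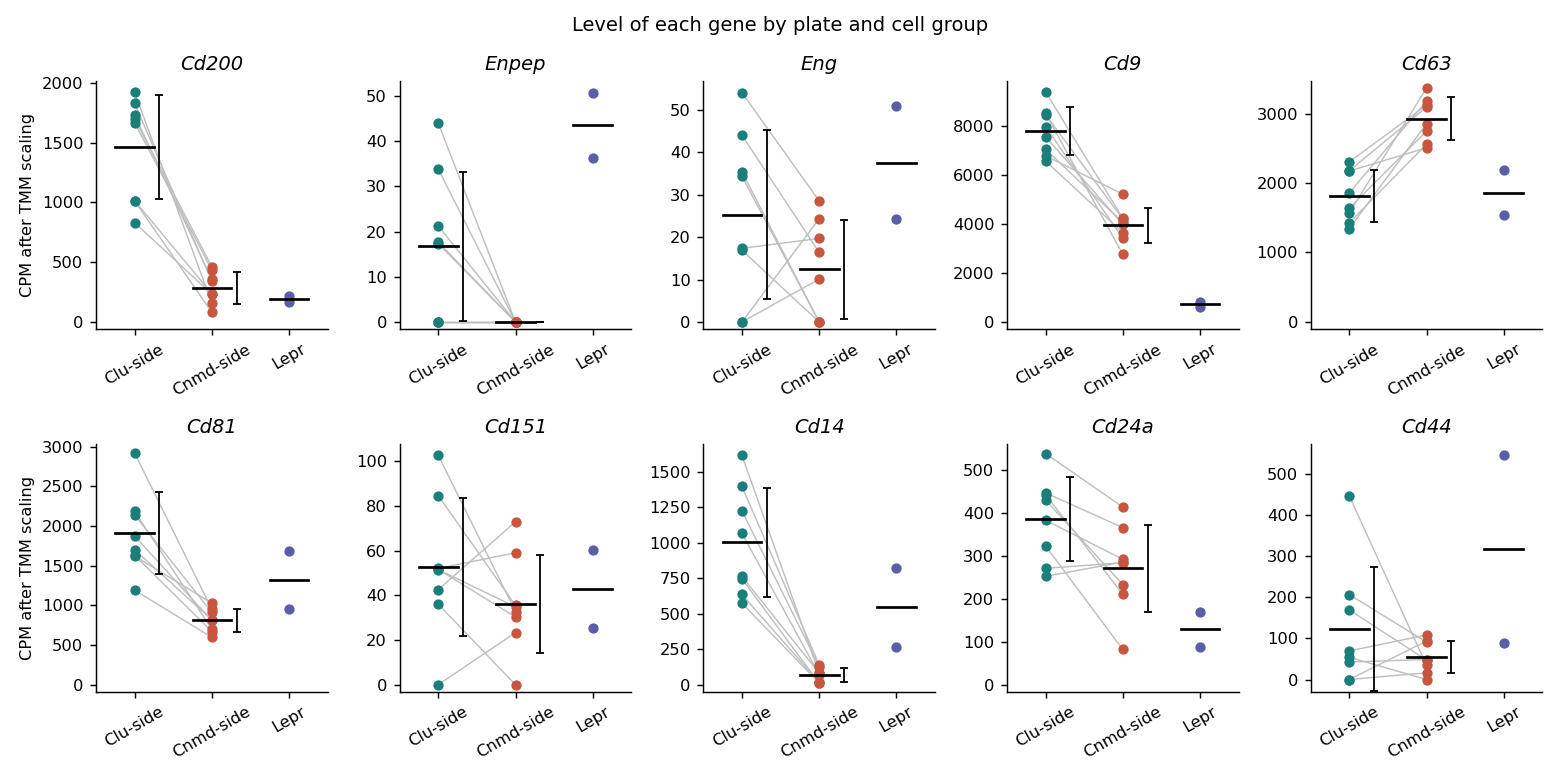
Level of each gene (CPM after TMM scaling, linear axis) in Clu-side, Cnmd-side and *Lepr*-lineage cells. Points are plates, grey lines join the 2 groups of a plate, black lines are means and error bars are 1 SD (8 plates, no bar for the 2 *Lepr*-lineage plates). The groups of *Grem1*-lineage cells do not overlap for *Cd200*, *Cd9*, *Cd63*, *Cd81* and *Cd14*.

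Of the 10 genes, 6 had enough counts to be tested between Clu-side and Cnmd-side cells. *Cd200*, *Cd9*, *Cd81*, *Cd14* and *Cd24a* were higher in Clu-side cells and *Cd63* was lower. Among all 1065 genes tested, 47% passed an adjusted p of 0.05, 23.1% higher and 23.9% lower in Clu-side cells, so a call is common here. Of the 6 members tested, 5 were called higher. The members were chosen with earlier results of these data known, so setting them beside all genes is a description and no test. The median log2 fold change of these 6 was 1.26, against -0.02 over all genes tested. The sums of both groups did not overlap for 5 of the 6, and for 13.6% of all genes tested. The level of a gene depends on the scaling. With total UMI counts in place of TMM the median of all genes moved to -0.35, and 24.2% rather than 49.1% of the calls were higher in Clu-side cells. The directions of all 6 genes were kept under that scaling, but *Cd24a* then no longer passed (0.35, adjusted p = 0.128).

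*Enpep* and *Eng* were close to the limit of detection in all groups. *Enpep* had 8 UMIs in Clu-side cells, on 5 of 8 plates (0 to 44.0 CPM, median 17.5), none in 270 Cnmd-side cells, and 3 and 4 UMIs on the *Lepr*-lineage plates (36.3 and 50.8 CPM). No UMI in 270 cells allows a share of cells with a UMI of up to 1.11%, taken as 3 counts of the total, while the 95% Clopper-Pearson bound was 1.36%. Taken over the whole group, the *Enpep* level was 12.3-fold a floor of 3 counts in Cnmd-side cells for the *Lepr* lineage, and 3.29-fold for Clu-side cells. These ratios rest on 7 and 8 UMIs and leave out the counting error of those UMIs. With no filter on low counts, edgeR gave a log2 fold change of 3.29 ± 1.46 (adjusted p = 0.240) for Clu-side over Cnmd-side cells. For the *Lepr* lineage over Cnmd-side cells it gave 4.87 ± 1.29 (adjusted p = 0.00353). *Eng* had 12 UMIs in Clu-side cells (0 to 54.1 CPM, median 25.9), 8 in Cnmd-side cells (0 to 28.5 CPM, median 13.3) and 6 in *Lepr*-lineage cells (24.2 and 50.8 CPM). The groups overlapped for *Eng*, and neither gene had enough counts for the main test, which filters low counts. The exons of *Eng* overlap those of *Fpgs* on the other strand, which had 4, 20 and 2 UMIs in the same groups, and whether the counting used strand is not stated.

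The study's methods describe the mSSC by a combination of transcripts: *Itga5* and *Cd200* present, and *Ptprc*, *Enpep* and *Eng* absent. Of these, *Cd200*, *Enpep* and *Eng* could be read in the *Grem1* lineage, while *Itga5* and *Ptprc* were not analysed here in that lineage. *Cd200* without *Enpep* and *Eng* was found in 225 of 414 Clu-side cells (54.3%, 95% Clopper-Pearson interval 49.4 to 59.2%) and in 87 of 270 Cnmd-side cells (32.2%, 26.7 to 38.2%). These intervals cover counting error only. Over the 8 plates the share was 55.5% ± 14.1 (SD) on the Clu-side, from 36.0 to 69.8%, and 31.1% ± 9.56 on the Cnmd-side, from 15.4 to 40.5%. The ranges overlapped between plates, but within each of the 8 plates the Clu-side share was the higher one. The difference was 24.4 ± 14.8 percentage points (SD, n = 8 plates), and ranged from 2.67 on plate 2 to 46.4 on plate 7. An exact two-sided sign-flip permutation test over the 8 plates gave p = 0.00781, the smallest it can give.

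Cnmd-side cells, with the lower share, were the deeper ones. With each cell thinned to 796 UMIs and shallower cells left out (60 Clu-side and 8 Cnmd-side cells), the share was 51.4% (46.1 to 56.7%) of 354 Clu-side cells and 14.9% (10.8 to 19.8%) of 262 Cnmd-side cells. *Enpep* and *Eng* removed few cells: 232 Clu-side and 91 Cnmd-side cells had *Cd200* at all. *Cd200* alone gave a difference of 24.7 percentage points. In the *Lepr* lineage, 27 of 160 cells had *Cd200* and 25 of them had neither *Enpep* nor *Eng* (15.6%, 10.4 to 22.2%). The *Lepr* table also lists the remaining genes: 24 of the 25 cells lacked *Ptprc*, and 1 of these had *Itga5*. *Itga5* encodes the integrin alpha 5 chain, and alpha V is encoded by *Itgav*. With *Itgav* in its place, 0 of the 24 cells fulfilled the combination. *Itga5* had 1 UMI and *Itgav* was found in 5 of the 160 cells, so the integrin criterion was at the limit of what this depth can show.

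**Figure D2:**
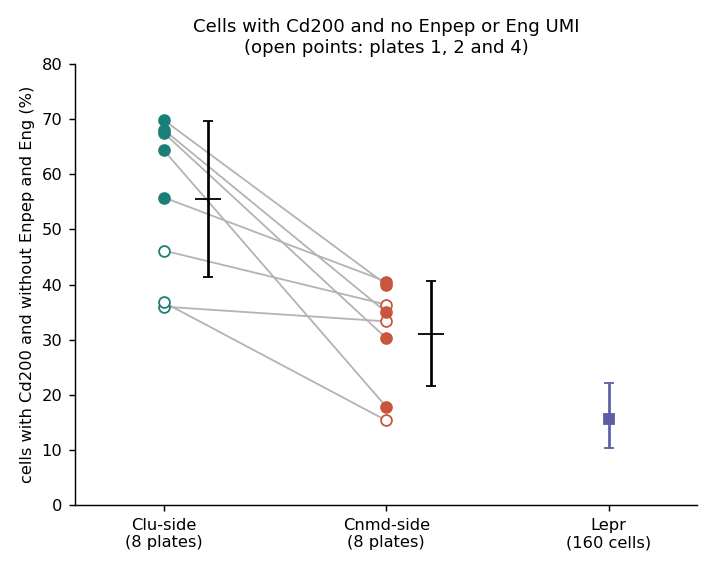
Share of cells (%) with a *Cd200* UMI and no *Enpep* or *Eng* UMI. Points are plates (open points are plates 1, 2 and 4), grey lines join the groups of a plate, black marks are the mean ± 1 SD of 8 plates, and the square is the share of 160 *Lepr*-lineage cells with its 95% Clopper-Pearson interval. All 8 lines fall from the Clu-side to the Cnmd-side.

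*Cd9* was found in nearly every *Grem1*-lineage cell and in a minority of *Lepr*-lineage cells. It was at 6562 to 9381 CPM in Clu-side cells (median 7757), at 2753 to 5208 CPM in Cnmd-side cells (median 4017), and at 823 and 622 CPM on the *Lepr*-lineage plates. The 3 groups did not overlap, with the order Clu-side, Cnmd-side and *Lepr*. *Cd9* was 2.22-fold higher in Clu-side than in Cnmd-side cells (log2 fold change 1.15 ± 0.13 SE, adjusted p = 6.01e-06 in edgeR), on 8 of 8 plates. At least 1 UMI was found in 409 of 414 Clu-side, 261 of 270 Cnmd-side and 61 of 160 *Lepr*-lineage cells. Thinned to 529 UMIs per cell, these shares were 94.4%, 78.4% and 35.1%. The exons of *Cd9* overlap *Gm26728* on the other strand, which had 1, 3 and 0 UMIs.

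*Cd81*, which encodes a tetraspanin that associates with immunoglobulin superfamily proteins in the membrane, followed *Cd9* within the *Grem1* lineage. It was at 1191 to 2921 CPM in Clu-side cells (median 1788), at 596 to 1027 CPM in Cnmd-side cells (median 814), and at 956 and 1689 CPM on the *Lepr*-lineage plates. The *Grem1*-lineage groups did not overlap, and *Lepr* plate 1 lay within the Cnmd-side range and *Lepr* plate 2 within the Clu-side range. *Cd81* was 2.59-fold higher in Clu-side than in Cnmd-side cells (1.37 ± 0.14, adjusted p = 1.25e-06), again on 8 of 8 plates. Its exons overlap *R74862* on the other strand, which was not analysed here. After thinning, 59.8% of Clu-side, 31.6% of Cnmd-side and 61.0% of *Lepr*-lineage cells had a UMI.

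*Cd63* went the other way. It was at 1342 to 2303 CPM in Clu-side cells (median 1748), at 2507 to 3368 CPM in Cnmd-side cells (median 2973), and at 1537 and 2184 CPM on the *Lepr*-lineage plates. Every Cnmd-side sum exceeded every Clu-side and *Lepr*-lineage sum. The level was 1.47-fold lower in Clu-side cells (-0.55 ± 0.14, adjusted p = 0.00422), on 8 of 8 plates. The gene has a processed copy, *Cd63-ps*, which drew 538 UMIs in Clu-side, 1526 in Cnmd-side and 158 in *Lepr*-lineage cells, or 39.1%, 44.6% and 34.6% of the UMIs of both, so the division of reads between gene and copy is uncertain. With both counted together the difference was -0.70 (adjusted p = 0.000749), and the ranges were 2185 to 3793 CPM and 4490 to 6036 CPM. *Cd9-ps*, the copy of *Cd9*, drew 11.3% and 9.25% of the UMIs of its pair in Clu-side and Cnmd-side cells, and with it included *Cd9* differed by 1.18 (adjusted p = 4.58e-06).

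*Cd151* was scarce, with 25, 24 and 7 UMIs in Clu-side, Cnmd-side and *Lepr*-lineage cells. Its levels were 0 to 103 CPM (median 51.6), 0 to 73.0 CPM (median 33.8), and 60.5 and 25.4 CPM. The groups overlapped fully, and the gene had too few counts for the test. *Gm10575*, which overlaps its exons on the other strand, had 6, 5 and 11 UMIs.

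Of a list of 31 tetraspanin genes, 7 were listed in both tables: the 4 above, *Cd82*, and the leukocyte tetraspanins *Cd37* and *Cd53*. Between Clu-side and Cnmd-side cells 3 were tested, of which 2 were higher and 1 lower. *Cd82*, which has been described as a suppressor of metastasis, was at 187 ± 64.3 CPM in Clu-side and 121 ± 61.2 CPM in Cnmd-side cells (SD, n = 8 plates) and was not tested there. *Cd37* and *Cd53* had 5 to 27 UMIs per group. Tetraspanins listed only in the *Lepr* table included *Tspan3* (67 UMIs in 46 of 160 cells), *Tspan12* in 24 cells and *Tspan17* in 22. Of 14 tetraspanin partners 4 were listed in both tables, and *Adam10*, a protease that tetraspanins help to traffic, was the only one tested in any comparison (*Lepr* over *Grem1* lineage 0.67, adjusted p = 0.502). In *Lepr*-lineage cells, *Itgb1* was found in 44 and *Vcam1* in 99 of 160 cells.

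*Cd14* had the largest difference of the 6 tested genes between the groups of *Grem1*-lineage cells. It was at 574 to 1617 CPM in Clu-side cells (median 915), at 9.85 to 140 CPM in Cnmd-side cells (median 75.97), and at 823 and 267 CPM on the *Lepr*-lineage plates. The lowest Clu-side sum was above the highest Cnmd-side sum. The level was 17.0-fold higher in Clu-side cells (4.09 ± 0.23, adjusted p = 3.04e-09), on 8 of 8 plates, and 4 Cnmd-side sums rested on 5 UMIs or fewer. A *Cd14* UMI was found in 133 of 414 Clu-side cells (32.1%), with up to 33 UMIs in 1 cell, and the 5 cells with the most *Cd14* held 25.3% of its Clu-side UMIs. Cells with at least 20 haematopoietic UMIs, 5 Clu-side and 4 Cnmd-side cells, held 12.5% and 9.30% of the *Cd14* UMIs and 2.76% and 3.82% of all UMIs. With every cell with a UMI of the 20 haematopoietic markers left out, the difference was 4.12 (adjusted p = 1.07e-08 in edgeR). Cells with UMIs of the haematopoietic genes not analysed in the *Grem1* lineage could not be left out. Of the 20 haematopoietic markers listed in both tables, 9 had the higher mean level in Clu-side cells, 8 in Cnmd-side cells and 3 were at 0 in both, and none had enough counts for the test. *Camp*, a granule gene of neutrophils, had 365 UMIs in Clu-side and 92 in Cnmd-side cells, *Cd52* had 53 and 18, *Fcer1g* had 44 and 28, and the macrophage gene *Cd68* had 27 and 18. *Ctsg* had 12 and 100, *C1qa* 0 and 6, and *Csf1r* 3 and 5, and the mean level of *Elane* was 60.0 and 659 CPM. Their part in the difference of *Cd14* was not tested beyond the fits given here.

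*Cd24a* differed less. It was at 252 to 538 CPM in Clu-side cells (median 407), at 81.9 to 414 CPM in Cnmd-side cells (median 285), and at 169 and 88.9 CPM on the *Lepr*-lineage plates. The groups of *Grem1*-lineage cells overlapped, and Clu-side was the higher one on 6 of 8 plates. The difference was 0.69 ± 0.19 (adjusted p = 0.00864), but with no filter on low counts the adjusted p was 0.123. *Cd44* was at 0 to 447 CPM in Clu-side cells (median 61.7), at 0 to 108 CPM in Cnmd-side cells (median 48.0), and at 545 and 88.9 CPM on the *Lepr*-lineage plates. The groups overlapped, and the gene had too few counts for the test between Clu-side and Cnmd-side cells. It was found in 22 of 414 Clu-side and 26 of 270 Cnmd-side cells, and 5 Clu-side cells held 64.9% of its UMIs there.

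The level of some members was not even over the *Grem1*-lineage plates. In Clu-side cells, plates 1, 2 and 4 had 832 to 1016 CPM of *Cd200*, and plates 5 to 9 had 1669 to 1924 CPM. The same plates differed in the opposite direction for *Cd63* (2173 to 2303 against 1342 to 1857 CPM) and *Cd81* (2141 to 2921 against 1191 to 1875 CPM). For the other 7 genes the ranges overlapped, and in Cnmd-side cells they overlapped for all 10 genes. The share with *Cd200* and without *Enpep* and *Eng* was 36.0 to 46.2% of Clu-side cells on plates 1, 2 and 4, and 55.8 to 69.8% on plates 5 to 9. The labels give no batch, tissue or date by plate, this division was seen in the values, and it was not tested. The differences between Clu-side and Cnmd-side cells above carry the plate as a block.

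Shares of cells were compared at equal depth. Thinned to 529 UMIs, *Cd200* was found in 37.5% of 413 Clu-side cells (95% interval 32.8 to 42.4%), in 14.1% of 269 Cnmd-side cells (10.2 to 18.9%) and in 11.7% of 77 *Lepr*-lineage cells (5.49 to 21.0%). *Cd14* was found in 20.8%, 2.60% and 22.1% of these cells, and *Cd24a* in 16.9%, 11.2% and 3.90%. *Cd63* was found in 55.7%, 65.4% and 64.9%. Without thinning, *Cd81* was found in 84.3% of Clu-side and 77.8% of Cnmd-side cells. Of the *Lepr*-lineage cells 83 were shallower than 529 UMIs and were left out, so their shares describe the deeper part of that lineage. No cell type that should lack these genes was sorted, so no share from free RNA can be set beside them.

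**Figure D3:**
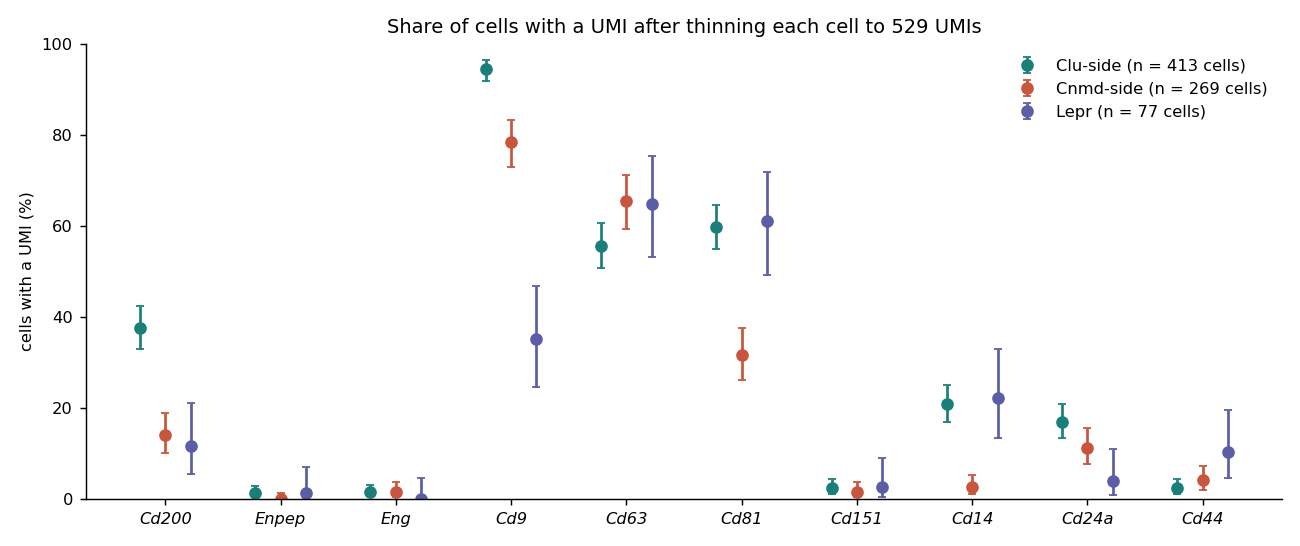
Share of cells (%) with at least 1 UMI after each cell was thinned to 529 UMIs, with 95% Clopper-Pearson intervals (counting error only), for Clu-side (413), Cnmd-side (269) and *Lepr*-lineage (77) cells. *Cd200*, *Cd9*, *Cd81* and *Cd14* were found in more Clu-side than Cnmd-side cells, and *Enpep*, *Eng* and *Cd151* stayed near 0 in all.

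Other members were counted in the cells with and without *Cd200*. Of the 232 Clu-side cells with *Cd200*, 99.1% had *Cd9*, 85.8% had *Cd81*, 80.6% had *Cd63* and 36.2% had *Cd14*. Of the 182 Clu-side cells without it, the shares were 98.4%, 82.4%, 80.2% and 26.9%, at a median of 975 UMIs per cell against 1389.5 in those with *Cd200*. In Cnmd-side cells, *Cd24a* was found in 46 of 91 cells with *Cd200* (50.5%) and in 47 of 179 without it (26.3%), at medians of 2453 and 2184 UMIs. In Clu-side cells *Cd24a* was found in 31.0% with *Cd200* and in 28.0% without it. *Enpep*, *Eng*, *Cd44* and *Cd151* were each found in under 10% of the Clu-side cells with *Cd200*, and *Eng* in 3 of these 232 cells against 8 of the 182 without it. The deeper cells are more likely to show any transcript, and these shares were not tested.

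The lineages were compared next, to ask how *Lepr*-lineage and *Grem1*-lineage cells differ in these genes. The lineages also differed in the tissue taken, the digestion, the sort and the plates. Tamoxifen is stated for the *Grem1* lineage only. None of these can be told apart from lineage in the comparisons below. Here UMIs were summed over all kept cells of a plate and CPM were scaled over those 10 sums. *Cd9* was at 729 and 550 CPM in the *Lepr* lineage and at 4932 to 6437 CPM in the *Grem1* lineage (median 5635, n = 8). The groups lay far apart, and *Cd9* was 7.69-fold lower in the *Lepr* lineage (-2.94 ± 0.33, adjusted p = 9.07e-06 in edgeR). *Cd200* was at 150.0 and 191 CPM against 497 to 1063 CPM (median 909), which was 4.07-fold lower (-2.03 ± 0.39, adjusted p = 0.00110). *Cd24a* was at 150.0 and 78.6 CPM against 208 to 481 CPM (median 314), which was 2.46-fold lower (-1.30 ± 0.38, adjusted p = 0.0169). For all 3 genes, both *Lepr*-lineage plates were below every *Grem1*-lineage plate.

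None of the 7 members tested was called higher in the *Lepr* lineage at an adjusted p under 0.05. Among all 2944 genes tested 29% passed, with 12.2% higher and 16.8% lower in the *Lepr* lineage. Of the 7 members, 3 were called lower, which is a description only, since the members were chosen with earlier results known. *Cd63* (1361 and 1932 against 2020 to 2881 CPM), *Cd81* (846 and 1494 against 845 to 1982 CPM) and *Cd14* (729 and 236 against 225 to 676 CPM) did not pass, with log2 fold changes of -0.40 ± 0.26, 0.05 ± 0.30 and 0.27 ± 0.42. The copy *Cd63-ps* alone was lower (-0.92 ± 0.25, adjusted p = 0.0116 in edgeR). It was also lower than in Cnmd-side cells (-1.06, adjusted p = 0.00387) but not than in Clu-side cells (-0.16, adjusted p = 0.681). With both counted together, *Cd63* differed by -0.60 between the lineages (adjusted p = 0.102), and the division of reads between gene and copy is uncertain. *Cd44* was at 482 and 78.6 CPM against 7.71 to 246 CPM (median 78.3), with a log2 fold change of 1.85 ± 0.68 and an adjusted p of 0.0524, which ranged from 0.000482 to 0.987 over 21 alternatives and was under 0.05 in 9 of them. Only *Lepr* plate 1 lay above the *Grem1*-lineage plates. With total UMI counts in place of TMM the median of all genes moved from -0.11 to 0.45 and the share of calls that were higher in the *Lepr* lineage from 42.0% to 72.9%. *Cd9* and *Cd200* stayed lower (-2.38 and -1.44), *Cd63* changed sign without passing (0.16), *Cd24a* no longer passed (-0.73, adjusted p = 0.134), and *Cd44* passed (2.43, adjusted p = 0.00817).

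Set against each group of *Grem1*-lineage cells, the members fell into different patterns. Against Clu-side cells 37.8% of 1592 genes passed, and *Cd9* (-3.35 ± 0.39), *Cd200* (-2.85 ± 0.45) and *Cd24a* (-1.48 ± 0.39) were lower in the *Lepr* lineage, with adjusted p-values of 2.43e-05, 0.000207 and 0.00792. Against Cnmd-side cells 32.9% of 1918 genes passed, and *Cd9* was lower (-2.24 ± 0.32, adjusted p = 0.000125) while *Cd14* (3.19 ± 0.56, adjusted p = 0.000626) and *Cd81* (0.93 ± 0.26, adjusted p = 0.0146) were higher. *Cd200* differed from Cnmd-side cells by -0.40 ± 0.49 (adjusted p = 0.561). All of these comparisons use the same 2 *Lepr*-lineage plates, and both *Grem1*-lineage groups come from the same 8 plates. With total UMI counts the share of calls that were higher in the *Lepr* lineage moved from 45.6% to 74.3% against Clu-side cells and from 49.9% to 65.8% against Cnmd-side cells. The calls of *Cd9*, *Cd200*, *Cd14* and *Cd81* named here held, and *Cd24a* did not pass (-0.87, adjusted p = 0.0643).

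**Figure D4:**
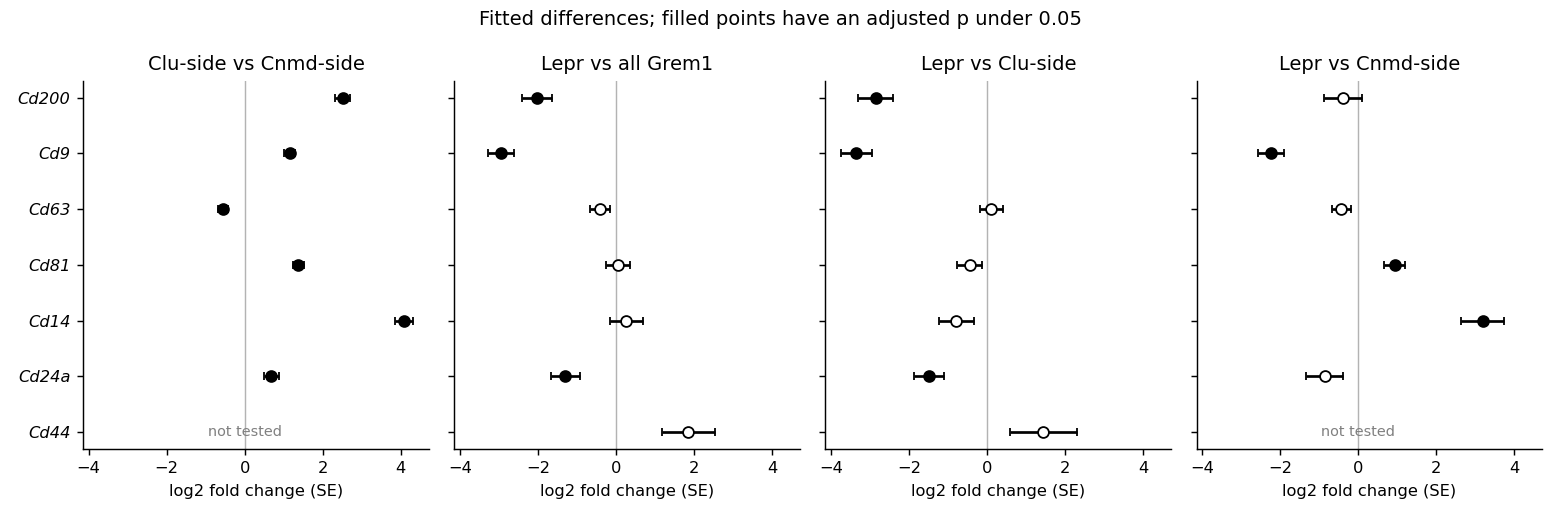
Log2 fold changes with their SE for the members that were tested in 4 comparisons, where a positive value is higher in the group named first. Filled points have an adjusted p under 0.05. *Cd9* is the only member with a filled point in every panel, above 0 in Clu-side against Cnmd-side cells and below 0 in the *Lepr* lineage.

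Several of these values rested on 1 *Lepr*-lineage plate. Without plate 1, *Cd14* against Cnmd-side cells was 2.10 (adjusted p = 0.0575), *Cd14* against Clu-side cells was -1.94 (adjusted p = 0.0286), and *Cd44* against the *Grem1* lineage was -0.06. Without plate 2, *Cd24a* was -0.97 against the *Grem1* lineage and -1.16 against Clu-side cells. *Cd81* against Cnmd-side cells was then 0.37, and *Cd44* against the *Grem1* lineage was 2.58. With both plates kept but no filter on low counts, *Cd81* against Cnmd-side cells was 0.73 and no longer passed (adjusted p = 0.164 in edgeR). *Cd9* and *Cd200* passed against the *Grem1* lineage and against Clu-side cells without either plate. Without *Grem1*-lineage plate 7, *Cd44* was 2.23 (adjusted p = 0.0157).

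Haematopoietic transcripts moved with some members in *Lepr*-lineage cells, and their part in these results was not tested beyond the values given here. In 19 of the 160 cells at least 20 haematopoietic UMIs were counted, and these cells held 40.4% of all UMIs of the lineage. They held 86.5% of its *Cd44* UMIs, 68.5% of its *Cd14* and 66.7% of its *Cd24a* UMIs, but 31.6% of *Cd9*, 25.1% of *Cd63*, 21.7% of *Cd81*, 19.4% of *Cd200* and none of the 7 *Enpep* UMIs. With such cells left out of both lineages, *Cd44* was 0.04 (adjusted p = 0.987), *Cd14* was -0.51 (adjusted p = 0.369), *Cd24a* was -2.11 (adjusted p = 0.00234), *Cd200* was -1.63 (adjusted p = 0.00523) and *Cd9* was -2.78 (adjusted p = 5.21e-06) in the *Lepr* lineage. Under the same limit *Cd14* was lower than in Clu-side cells (-1.56, adjusted p = 0.00404) and still higher than in Cnmd-side cells (2.37, adjusted p = 0.00893). *Cd24a* then also passed against Cnmd-side cells (-1.61, adjusted p = 0.0450).

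**Figure D5:**
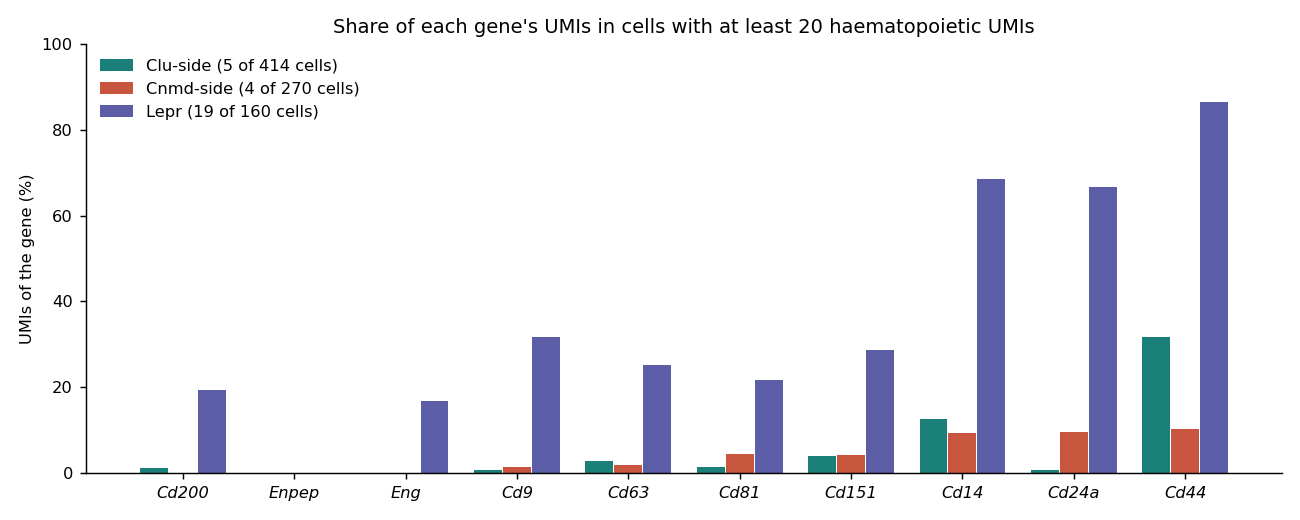
Share (%) of the UMIs of each gene that lay in cells with at least 20 haematopoietic UMIs, which were 5 of 414 Clu-side, 4 of 270 Cnmd-side and 19 of 160 *Lepr*-lineage cells. In the *Lepr* lineage the bars of *Cd44*, *Cd14* and *Cd24a* exceed the 40.4% of all UMIs that these cells held.

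Other genes of the same pathways were read from lists. Of 28 skeletal stem and stromal cell surface genes, 12 were listed in both tables. Between Clu-side and Cnmd-side cells 3 were tested and only *Cd200* passed, while *Cspg4* (NG2, a pericyte proteoglycan) was at 470 ± 119 and 468 ± 77.5 CPM (SD, n = 8; log2 fold change 0.15, adjusted p = 0.446) and *Cd164*, a sialomucin, differed by 0.47 (adjusted p = 0.197). Between the lineages 5 were tested, 2 were lower in the *Lepr* lineage and 1 was higher. The lower ones were *Cspg4* (-2.42 ± 0.31, adjusted p = 3.25e-05) and *Cd200*, and the higher one was *Cdh2*, which encodes N-cadherin (3.71 ± 0.87, adjusted p = 0.00451, on 17, 6 and 2 UMIs in *Lepr*-lineage, Clu-side and Cnmd-side cells). *Cspg4* was also lower than in Clu-side (-2.34) and Cnmd-side cells (-2.20). In *Lepr*-lineage cells, for which the remaining genes are listed, *Pdgfrb* was found in 56 of 160 cells, *Lepr* itself in 53, *Pdgfra* in 13 and *Ly6a* in 6.

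Of 37 ligands, receptors and partners of the members, 14 were listed in both tables, and none had enough counts to be tested between Clu-side and Cnmd-side cells. The receptors of CD200 were at or near 0, with *Cd200r1* at 6 UMIs in Cnmd-side cells and 0 elsewhere, *Cd200r3* at 1 and 4 UMIs in Clu-side and Cnmd-side cells, and *Cd200r2* and *Cd200r4* at 0. *Agt*, which encodes the precursor of the angiotensin peptides that ENPEP cleaves, was the only 1 of 5 tested between the lineages that passed, with 1203 ± 383 CPM in the *Lepr* lineage (SD, n = 2 plates) against 74.5 ± 63.1 in Clu-side and 58.0 ± 54.1 in Cnmd-side cells (log2 fold change against the *Grem1* lineage 4.22 ± 0.41, adjusted p = 2.43e-06). It was higher than in each *Grem1*-lineage group as well (4.01 and 4.65). *Bmpr2*, a partner of endoglin in BMP signalling, differed by 0.12 (adjusted p = 0.851) and *Ezr*, which links CD44 to the cytoskeleton, by 1.21 (adjusted p = 0.229). In *Lepr*-lineage cells *Spp1*, which encodes the CD44 ligand osteopontin, was found in 138 of 160 cells, *Lbp*, which passes lipopolysaccharide to CD14, in 43, *Tlr2* in 9 and *Tlr4* in 2.

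Tetraspanins showed 2 of 4 lower in the *Lepr* than in the *Grem1* lineage, *Cd9* and *Cd82* (-2.22 ± 0.57, adjusted p = 0.00820). *Cd82* was also lower than in Clu-side cells (-2.45, adjusted p = 0.00469) and did not pass against Cnmd-side cells (-1.70, adjusted p = 0.0684). It rested on 5 *Lepr*-lineage UMIs. Of the haematopoietic list, 5 of 9 tested were higher in the *Lepr* than in the *Grem1* lineage, led by *Camp* (5.20), *Fcer1g* (4.30) and *Cd52* (3.26). *Elane* was higher than in Clu-side cells (5.24) and did not pass against Cnmd-side cells (2.00, adjusted p = 0.338). No endothelial gene reached the test. Of the muscle and synovial fibroblast list 2 were tested between the lineages, *Acta1* and *Dkk3*, and neither passed.

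For the members at 50 CPM or more, the genes with the most similar level over the 18 sums (8 Clu-side, 8 Cnmd-side and 2 *Lepr*) were found by the Pearson correlation of log2 CPM among 2635 genes. These sums share plates, libraries and the split itself, so the values are a description. *Cd200* was most like *Cst3* (r = 0.93), *Dst* (0.92) and *Adgrg2* (0.91). *Cd9* was most like *Crispld1* (0.96), *Chad* (0.96) and *Cpe* (0.96), and *Cd14* was most like *Abi3bp* (0.93), *Card19* (0.91) and *Fgfr2* (0.90). *Abi3bp* also came first for *Cd81* (0.90), followed by *Fhl1* (0.87) and *Angptl7* (0.87). *Cd63* was most like its own copy *Cd63-ps* (0.93), then *Cdkn1c* (0.92) and *Capn6* (0.92). *Cd24a* had *Fxyd3* (0.87), *Crebbp* (0.86) and *Celf1* (0.81), and *Cd44* had *Col1a1* (0.83), *Col1a2* (0.81) and *Gm11336* (0.79). Between members, *Cd14* and *Cd81* were most alike (0.85), and *Cd14* and *Cd63* least (-0.78).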

How the data were processed

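The deposited values are raw UMI counts per gene and cell, which the authors made from 96-well plate libraries. Per the labels, the submitters' processing notes name UMI-tools, STAR, featureCounts, SAMtools and Seurat with build mm10, and whether counting used strand is not given in the sources used here. The *Grem1* table as held here ends within a row, so 29183 complete rows were used and genes beyond them were not analysed here. No column lacked a sample.

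Wells under 350 detected genes were left out (684 of 768 and 160 of 162 remained). The minimum was counted over the genes listed for each lineage, 29183 and 50508, and over shared genes alone in an alternative. UMIs were summed per plate and group, and tested with edgeR 4.0.16 in R 4.3.3 (quasi-likelihood, TMM, filterByExpr, Benjamini-Hochberg adjusted p under 0.05 over all genes tested). The Clu-side against Cnmd-side fit left out the 4 genes of the split. Its plate numbers pair sums from the same plate (correlations of deviations 0.185 to 0.454, 8 of 8 plates over 0.1), and the plate was a block. Between different plates the mean correlation was -0.0429. Some such pairs were as high, among them Clu-side plate 2 with Cnmd-side plate 4 (0.371) and Clu-side plate 7 with Cnmd-side plate 9 (0.366). The lineage fits had no block. Intervals are Clopper-Pearson (95%) and cover counting error only. Precision was limited by 51229 to 106289 UMIs per sum and by the 2 *Lepr*-lineage plates. On simulated data with 3-fold changes, edgeR recovered 100% of 164 changed genes between Clu-side and Cnmd-side cells (1058 tested). Between the lineages it recovered 47.5% of 179 (2668 tested). Changed genes that the filter on low counts removed were not counted in these shares. Of the genes called, 2.38% and 5.56% had not been changed. The simulation gave every gene the same excess spread over counting error and no plate effect. These shares therefore may not hold for genes that vary more between plates. DESeq2 1.42.0, other scalings, filters, cell sets and left-out plates were alternatives, of which total UMI counts, the limit of 20 haematopoietic UMIs, at least 10 UMIs of the split genes, *Cd200* alone and the added pseudogene copies were chosen after seeing the data.

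Members and gene lists were chosen with earlier results of these data known. Named were all members, up to 4 genes per list with the largest change among those past the threshold at 50 CPM or more, and the 3 genes most like each member. Other genes were named after their values were seen.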

Additional observations from a re-analysis of the deposited data

Results flagged for a closer look

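*Cd44* was at 447 CPM in Clu-side cells of plate 7, far above the other 7 plates, of which the nearest was at 206 CPM. The gap was 0.538 of the range of the group. It was 1 of 22 groups of 8 plates examined, and chance marks about 1 in 20 such groups.

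*Cd9* was also found outside the comparisons, in the *Grem1*-lineage wells that were left out for having under 350 detected genes. These 84 wells held 39804 UMIs, with a median of 501.5, and 243 of them were *Cd9*. It was found in 66 of the 84 wells (78.6%).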

How the results depend on the processing

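Of 497 refitted log2 fold changes of members, 472 kept their side of the threshold, 11 lost a call and 14 gained one. The sign changed in 13, all of them of *Cd14*, *Cd44*, *Cd63* or *Cd81* against *Lepr*-lineage cells and without a call in either fit. *Cd9* and *Cd200* kept each call they had. Between the lineages, *Cd24a* also lost its call with plates 1 and 2 of each lineage alone (-1.12 with a replicate block, -1.10 without, adjusted p = 0.147 and 0.124 in edgeR). *Cd44* gained a call there in 9 of 21 alternatives, among them the gene minimum over shared genes (2.12, adjusted p = 0.0254), under which *Cd200* was -2.43, and against Clu-side cells with no filter (adjusted p = 0.0189) and total UMI counts (adjusted p = 0.0464). Between Clu-side and Cnmd-side cells 501 genes passed, against 771 with no filter on low counts and 442 with no replicate block. Between the lineages 853 passed. With plates 1 and 2 of each lineage alone, 489 passed with a replicate block and 451 without it. Those numbers did not pair the plates (correlation 0.0795), and fewer samples entered these fits. Leaving out 1 plate gave 529 to 850 genes between the lineages, 388 to 590 against Clu-side cells, where all plates gave 601, and 434 to 638 against Cnmd-side cells, where all plates gave 631. The lowest values came without *Lepr*-lineage plate 2. The difference in the share of cells with *Cd200* was 20.5 to 37.8 percentage points over 15 alternatives. Exact permutation p-values ranged from 0.00202 to 0.0234. The lowest is under 0.00781, the smallest that the sign-flip test over 8 plates can give, so not all of them came from that test. Comparisons between the lineages without any cell with a haematopoietic UMI could not be run, because no *Lepr*-lineage cell was left. Depth limited *Enpep*, *Eng* and *Cd151*, and *Cd44* between the *Grem1*-lineage groups.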
